A study of Mus musculus with 19 samples.

Results

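Loss of Lin28a in mouse embryonic stem cells whose Trim71 gene was intact was followed across 14988 genes. The comparison takes the 9 of 19 libraries of the series that its labels place in 2 genotypes. WT-WT is Trimfl/fl - Lin28afl/fl, with both floxed genes intact, in 4 libraries. WT-KO is Trimfl/fl - Lin28a-/-, with Trim71 floxed but intact and Lin28a deleted, in 5 libraries. All were male C57BL/6 cells grown in fetal calf serum with leukaemia inhibitory factor and enriched with magnetic beads for SSEA-1, a surface antigen of undifferentiated mouse stem cells. The series also holds cells in which Trim71 was deleted by 500 nM 4-OHT given for 2 days and followed by at least 7 days of culture, in both Lin28a states (KO-WT and KO-KO). The labels do not say whether the Trim71-intact cells received the drug, or which part of Lin28a is missing.

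The clones were not shared between Lin28a states: WT-WT libraries from clones 1 and E3, WT-KO libraries from clones 1-4 and C1. Lin28a state and clone therefore cannot be told apart anywhere below. The deposited log2 values had been adjusted before deposit so that neither days nor the clones within a Lin28a state differ on average, and the errors given here leave out variation between days and between clones. A fit of a single clone pair is therefore no independent check. Library depth is unknown. In bulk RNA, fewer cells of a type and less RNA per cell cannot be told apart. The kit does not mark strand, so reads of overlapping antisense genes are not separable.

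LIN28A is an RNA-binding protein of early embryonic cells. It binds the precursors of the let-7 microRNAs and recruits terminal uridylyl transferases, which tail the precursor and mark it for decay by the exonuclease DIS3L2. Mature let-7 represses messages such as Hmga2 and Trim71, and LIN28A also binds many messages directly, among them messages translated at the endoplasmic reticulum.

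Lin28a itself was measured first, to see whether the labels hold. The gene lies on chromosome 4 in GENCODE vM21. Its log2 normalised expression was 10.20, 10.26, 9.90 and 10.16 in WT-WT replicates 1 to 4 and 8.48, 8.57, 8.33, 8.52 and 8.47 in WT-KO replicates 1 to 5. The difference, WT-KO minus WT-WT, was -1.65 ± 0.0782 (log2, SE; adjusted p = 5.55e-10, limma with Benjamini-Hochberg adjustment), and every WT-KO library lay below every WT-WT library. Lin28a message was thus reduced but still measured in the cells labelled null. Gm13061, a transcript annotated on the opposite strand over Lin28a, differed by -0.78 ± 0.110. On one side of Lin28a, Hmgn2 (-0.10, adjusted p = 0.231), Dhdds (0.08, adjusted p = 0.291) and Rps6ka1 were not called by limma. Arid1a (0.40, adjusted p = 0.000843) and Gm12977 (0.20, adjusted p = 0.0231) on that side were called by limma. On the other side limma called Crybg2 (0.39, adjusted p = 0.0022) and Cd52 (-0.31, adjusted p = 0.0485), but not Ubxn11 or Sh3bgrl3. The paralogue Lin28b was not called (0.16, adjusted p = 0.235, limma), but passed the threshold with a GC and length correction (0.28, adjusted p = 0.00267). Trim71 itself was 0.45 ± 0.114 higher in WT-KO (adjusted p = 0.00611, limma), and in clones 1 and 1-4 alone it missed the threshold at 0.25 (adjusted p = 0.0508).

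Across the 14988 genes tested, 5842 (39.0%) differed at an adjusted p under 0.05 in limma, the threshold for a called gene throughout. Of these, 2798 (18.7%) were higher and 3044 (20.3%) lower in WT-KO. Most differences were small: the median absolute log2 difference of called genes was 0.326. Large differences were mostly falls. At least a 2-fold difference was reached by 202 genes (1.35%), of which 188 (1.25%) were lower and 14 (0.0934%) higher, and in all 202 the WT-WT and WT-KO libraries did not overlap, against 40.8% of all genes tested. Transcript GC content moved with the calls: of genes in the lowest-GC group of 5 equal groups, 6.66% rose and 27.4% fell, and in the highest-GC group 29.2% rose and 14.3% fell, and its part in the calls was not tested. With a GC and length correction 3621 genes were higher and 2662 lower. In clones E3 and C1 alone 2323 genes were called, with 195 at 2-fold, and in clones 1 and 1-4 alone 4373, with 215 at 2-fold. Each of these fits has 2 same-day pairs. In clones E3 and C1 alone 54 of 86 list counts moved by over 1.5 times, and in clones 1 and 1-4 alone 12 did. The gene lists below were chosen with earlier results of these data known. A high share called in a list is therefore a description and no test. List counts are to be read beside the 18.7% called higher and 20.3% called lower over all genes.

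**Figure D1:**
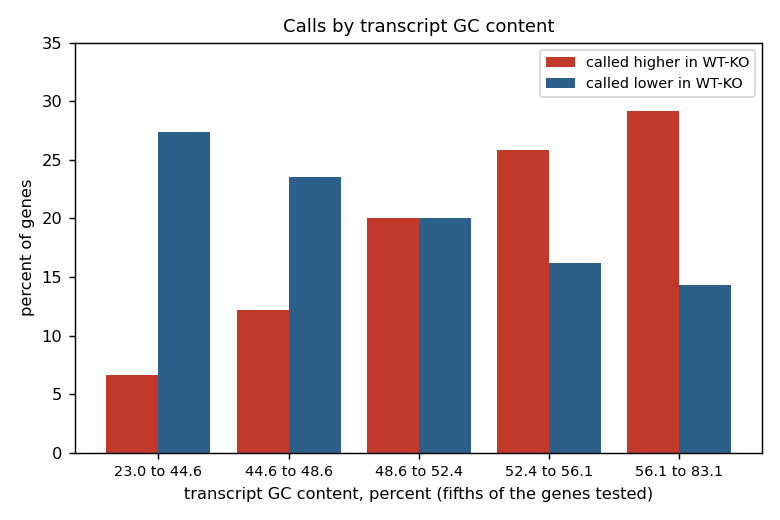
Percent of tested genes called higher or lower in WT-KO (y axis) in 5 equal groups of transcript GC content (x axis, percent). The share called higher runs from 6.66% in the lowest group to 29.2% in the highest, and the share called lower from 27.4% to 14.3%.

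The largest fall belonged to H19, the maternally expressed imprinted long non-coding RNA that lies beside Igf2 on chromosome 7 (annotation of GENCODE vM21). H19 stood at 11.10, 11.24, 10.998 and 11.52 in WT-WT and at 6.03, 5.89, 6.03, 6.15 and 6.43 in WT-KO, a difference of -5.11 ± 0.144 (adjusted p = 3e-12, limma). The lowest WT-WT library was far above the highest WT-KO library. Gm27483 (-3.71) and Gm27786 (-3.66), annotated as RNAs of 71 and 70 bases on the opposite strand inside H19, fell as well, and their reads cannot be separated from those of H19. Igf2, the paternally expressed growth factor gene of the same locus, was lower at 3.12 to 3.41 in WT-KO against 5.03 to 5.31 in WT-WT (-1.83 ± 0.117, adjusted p = 1.48e-08, limma).

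Other imprinted genes moved both ways. Peg10, a paternally expressed gene derived from a retrotransposon and needed for the placenta, was at 12.35, 12.66, 12.58 and 12.56 in WT-WT and at 9.80, 10.12, 9.89, 9.88 and 9.68 in WT-KO (-2.66 ± 0.105, adjusted p = 9.53e-11, limma). Its neighbour on chromosome 6, Sgce, fell with it, by 1.41. Phlda2, a maternally expressed restrainer of placental growth, rose by 1.06 ± 0.0724 (adjusted p = 2.97e-08, limma), from 7.76 to 8.01 in WT-WT to 8.77 to 9.04 in WT-KO, and Grb10, an adaptor that dampens insulin signalling, rose by 0.92. Ascl2 (-1.04), the non-coding RNAs Peg13 (-1.18), Rian (-1.01), Meg3 (-0.75) and Kcnq1ot1 (-0.67) fell, and Mest rose by 0.37, a call lost in clones E3 and C1 alone. Of 38 imprinted genes tested, 7 (18.4%) rose, near the 18.7% of all genes tested, and 17 (44.7%) fell, against 20.3%. The median log2 difference was -0.18, against -0.01 over all genes. In clones E3 and C1 alone 4 rose.

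**Figure D2:**
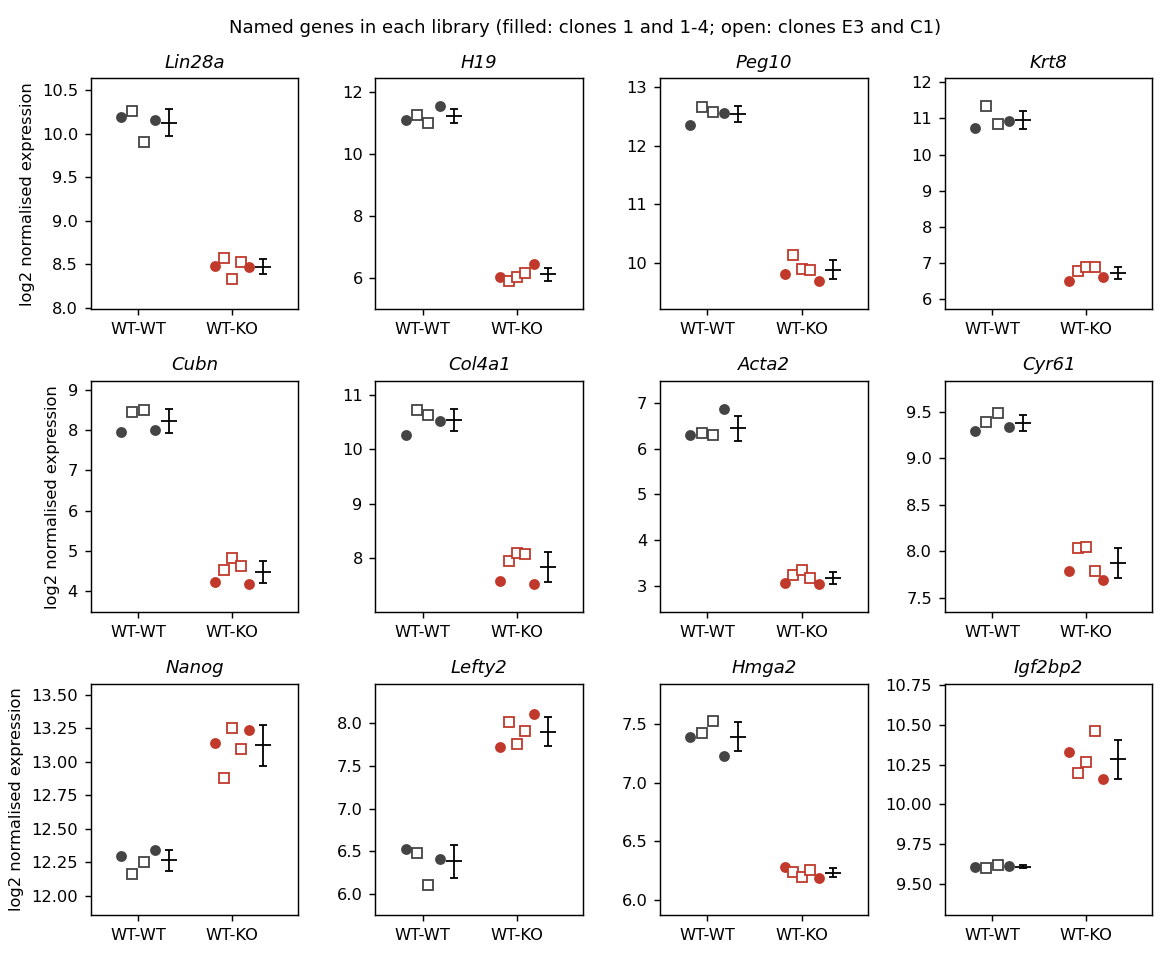
Log2 normalised expression (y axis) of 12 genes in each WT-WT (n = 4) and WT-KO (n = 5) library; each point is a library (filled for clones 1 and 1-4, open for E3 and C1), and the bars beside them are the group mean ± SD. H19, Peg10, Krt8, Cubn, Col4a1, Acta2, Cyr61, Hmga2 and Lin28a are lower in every WT-KO library, and Nanog, Lefty2 and Igf2bp2 are higher.

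Genes of the trophectoderm, the outer layer of the blastocyst that founds the placenta, were lower as a group. Of 21 tested members of a 28-gene list, 18 (85.7%) fell, 14 of them at least 2-fold, and 1 rose; the median log2 difference was -1.23. Plac1 entered the test through the Lin28a-intact libraries alone, so that entry favoured a fall and its call is no support. The simple-epithelium keratins led the list. Krt8 was at 10.74, 11.33, 10.84 and 10.92 in WT-WT and at 6.51, 6.79, 6.89, 6.89 and 6.62 in WT-KO (-4.22 ± 0.155, adjusted p = 6.23e-11, limma). Its filament partner Krt18 fell by 4.20 ± 0.150, Krt7 by 3.19 ± 0.142 and Krt19 by 2.86 ± 0.193, with no overlap of the groups for any of them.

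Transcription factors of the trophoblast did not move together. Hand1, which drives trophoblast giant cells, was at 6.54, 6.83, 6.58 and 6.61 in WT-WT and at 3.49, 3.89, 3.90, 3.93 and 3.61 in WT-KO (-2.88 ± 0.137, adjusted p = 5.55e-10, limma). Gata3, a driver of trophectoderm identity, fell by 1.47 ± 0.0774, and the homeobox genes Esx1 (-1.10), Rhox6 (-1.38) and Rhox9 (-1.40) fell too. Eomes (0.13, adjusted p = 0.28) and Tfap2c (0.13, adjusted p = 0.163), both regulators of trophoblast stem cells, were not called by limma. Cdh3, encoding P-cadherin, was the member that rose (0.64 ± 0.0816). Cdx2, Elf5, Tfap2a, Pparg and Gcm1 were too low to be tested. Over the 6 fixed trophectoderm markers, summed units per library ran from 417 to 509 in WT-WT and from 67.4 to 83.9 in WT-KO.

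Primitive endoderm genes, which mark the extraembryonic layer that forms the yolk sac, were lower too. Of 22 tested members of a 31-gene list, 18 (81.8%) fell, 12 at least 2-fold, and 1 rose, with a median of -1.06. Cubn, the endocytic receptor cubilin of the yolk sac epithelium, was at 7.94, 8.45, 8.49 and 7.995 in WT-WT and at 4.23, 4.53, 4.84, 4.64 and 4.18 in WT-KO (-3.74 ± 0.210, adjusted p = 3.29e-09, limma). Its partner receptor Lrp2 fell by 2.33 ± 0.184 and the endocytic adaptor Dab2 by 2.78 ± 0.188. The lineage factors fell less: Gata4 was at 6.31 to 6.66 in WT-WT and 4.64 to 5.12 in WT-KO (-1.60 ± 0.156), Gata6 differed by -1.34 ± 0.146 and the growth factor receptor Pdgfra by -1.52 ± 0.182. Sox7 did not pass the test (-0.27, adjusted p = 0.0562, limma), though it did without WT-WT replicate 4 or WT-KO replicate 2, and Apoa2 rose by 0.37. Among others, Sox17, Foxa2, Hnf4a, Apoa1, Apob and Thbd were below the level for testing. Amn and Plat passed it through Lin28a-intact libraries alone, so that entry favoured a fall and their calls are no support. Summed units of the 6 fixed primitive endoderm markers were 259 to 358 in WT-WT and 78.7 to 102 in WT-KO.

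Basement membrane genes overlap that list. Col4a1, one chain of the main collagen IV network, was at 10.26, 10.73, 10.63 and 10.52 in WT-WT and at 7.58, 7.94, 8.09, 8.07 and 7.52 in WT-KO (-2.69 ± 0.176, adjusted p = 1.92e-08, limma), and its partner chain Col4a2 fell by 2.85 ± 0.196. Col4a5 fell by 1.45, the collagen-modifying enzymes Loxl2 and P4ha2 by 2.06 and 1.18, the collagen chaperone Serpinh1 by 1.28 and Sparc, a collagen-binding matrix protein, by 1.09. The laminin chains Lamb1 (-0.56), Lama1 (-0.31) and Lamc1 (-0.29) fell less. Of 25 basement membrane genes tested, 3 (12%) rose, among them Fbln1 (0.52) and Agrn (0.29), and 13 (52.0%) fell. In clones E3 and C1 alone 1 rose.

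Contractile and membrane-linker genes, grouped with earlier results of these data known, were mostly lower. Of 29 cytoskeleton, annexin and related genes tested, 23 (79.3%) fell, 12 at least 2-fold, and 2 rose, with a median of -0.80; 1 rose without WT-WT replicate 3, without WT-WT replicate 4 or in either clone pair alone. Cd44, one of those that fell, entered the test through the Lin28a-intact libraries alone, so that entry favoured a fall and its call is no support. Acta2, smooth muscle actin, was at 6.30, 6.35, 6.30 and 6.87 in WT-WT and at 3.05, 3.23, 3.34, 3.17 and 3.03 in WT-KO (-3.29 ± 0.141, adjusted p = 2.42e-10, limma), and WT-WT replicate 4 was the highest. Tagln, an actin-binding protein of smooth muscle, fell by 3.14 ± 0.151. The calcium-dependent membrane binders Anxa2, Anxa1 and Anxa3 fell by 3.41, 3.01 and 3.00, and S100a6 by 2.11. The matrix protein Thbs1 (-2.76) was lower as well, while Cald1 (-1.41), Tpm1 (-1.19) and Vim (-0.64) fell less. Fibronectin, Fn1, rose by 0.44. Flna (-0.02, adjusted p = 0.866), Vcl (-0.07, adjusted p = 0.364) and Myl9 (0.17, adjusted p = 0.352) were not called by limma.

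Fibroblast markers were measured because stem cell cultures can hold feeder cells. The 3 of 7 fixed markers in the table summed to 93.0 to 118 units in WT-WT and 64.4 to 70.8 in WT-KO: Col1a2 was lower by 1.88 ± 0.157, Col1a1 by 0.87 ± 0.137, and Thy1 was not called (0.14, adjusted p = 0.47, limma). Of the 6 tested members of a wider 16-gene list, 1 rose (Col5a1, 0.26 ± 0.0702), 2 fell and 3 were not called, with a median of -0.10; 0 rose in either clone pair alone. Its summed units were 243 to 275 in WT-WT and 212 to 231 in WT-KO. Their part in the contractile gene falls was not tested.

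**Figure D3:**
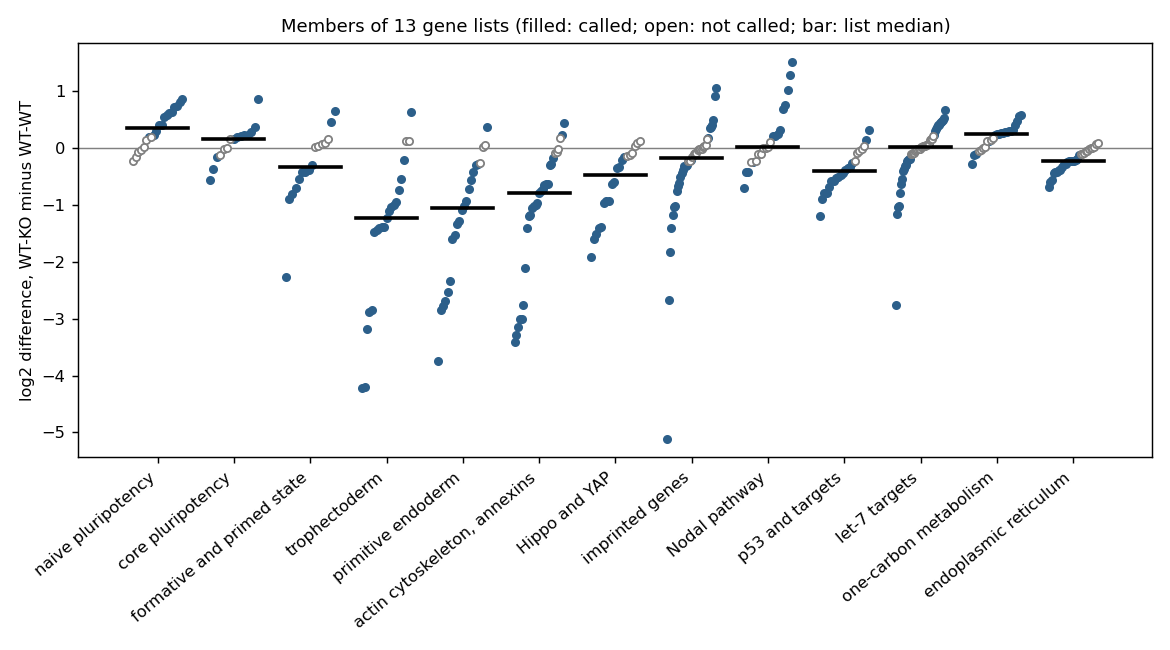
Log2 difference, WT-KO minus WT-WT (y axis), of each tested member of the gene lists named on the x axis; filled points are called genes, open points are not, and bars are list medians. The lists were chosen with earlier results of these data known. The trophectoderm, primitive endoderm and cytoskeleton lists have the lowest medians of those drawn (-1.23, -1.06 and -0.80). The lowest point is H19 in the imprinted list, and the naive pluripotency list has no called member below 0.

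Genes of the Hippo pathway, whose effector YAP works with TEAD factors to switch on growth and cytoskeletal genes, were lower. Of 20 tested, 14 (70.0%) fell and 0 rose in limma (0 also at an unadjusted p under 0.05, and 1 with the GC correction), with a median of -0.47; 10 fell in clones E3 and C1 alone. Cyr61, a classical YAP target encoding a secreted matrix protein, was at 9.29, 9.40, 9.49 and 9.34 in WT-WT and at 7.80, 8.04, 8.05, 7.79 and 7.69 in WT-KO (-1.51 ± 0.103, adjusted p = 3.05e-08, limma). Its relative Ctgf fell by 1.38 ± 0.117, the coagulation initiator F3 by 1.60 and the receptor kinase Axl by 1.41. The pathway's own regulators Amot (-1.92 ± 0.163), Amotl2 (-0.94) and Lats2 (-0.96) were lower too. Yap1 differed by -0.15 (adjusted p = 0.0148, limma), a call that missed the threshold without WT-WT replicate 4, without WT-KO replicate 1 and in clones E3 and C1 alone. Tead1 was not called (-0.12, adjusted p = 0.177, limma).

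Promoters of 2 of the genes that fell are shown because both hold the TEAD recognition letters GGAATG, here on the opposite strand as CATTCC and in capitals. They are the 250 bases before the RefSeq start site in GRCm38.p6. The first is chr3:145649986-145650235 on the minus strand, upstream of Cyr61, listed there as Ccn1, and the second is chr9:102717554-102717803 on the plus strand, upstream of Amotl2.
Cyr61: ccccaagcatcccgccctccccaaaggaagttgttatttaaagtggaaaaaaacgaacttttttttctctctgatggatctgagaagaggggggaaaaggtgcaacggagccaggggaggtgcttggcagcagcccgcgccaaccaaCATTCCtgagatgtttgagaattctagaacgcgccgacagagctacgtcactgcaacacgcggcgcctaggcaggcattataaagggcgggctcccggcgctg
Amotl2: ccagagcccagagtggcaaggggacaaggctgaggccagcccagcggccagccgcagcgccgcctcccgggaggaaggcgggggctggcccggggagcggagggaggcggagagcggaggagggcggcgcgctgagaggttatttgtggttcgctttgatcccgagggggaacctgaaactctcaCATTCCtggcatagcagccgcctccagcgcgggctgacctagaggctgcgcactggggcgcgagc
On either strand, GGAATG occurred in the window of 250 bases before to 50 after the start in 9 of 12 Hippo genes that fell and have a window, in 1 of the other 3 that have one, and in 16.6% of 27025 genes. A letter match is a description and no evidence of binding.

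Pluripotency genes moved the other way, and the naive network, which holds cells in the state of the early epiblast, rose. Nanog was at 12.30, 12.16, 12.25 and 12.34 in WT-WT and at 13.14, 12.88, 13.25, 13.10 and 13.24 in WT-KO (0.86 ± 0.0800, adjusted p = 8.69e-07, limma), with no overlap. Of 20 naive-state genes tested, 13 (65.0%) rose and 0 fell in limma (0 also at an unadjusted p under 0.05), with a median of 0.35; 1 fell without WT-KO replicate 2. The germ cell and oocyte factor Dppa3 rose by 0.86, the kinase co-activator Tcl1 by 0.81, the nuclear receptors Nr5a2 and Esrrb by 0.74 and 0.63, Prdm14 by 0.71, the Krüppel-like factors Klf4 and Klf5 by 0.61 and 0.58, and Nr0b1 by 0.54. Zfp42, a common stem cell marker, was not called (-0.03, adjusted p = 0.713, limma). Of 15 core pluripotency genes, 8 rose and 3 fell; 5 rose without WT-WT replicate 3 or 4 and 2 in clones E3 and C1 alone, and 1 fell without WT-WT replicate 2 or WT-KO replicate 3 and 0 in clones E3 and C1 alone. Sox2 was 0.21 ± 0.0551 higher (adjusted p = 0.00699, limma), a call lost without WT-WT replicate 4 (0.15, adjusted p = 0.0534) and in clones 1 and 1-4 alone. The 6 stem cell markers summed to 16060 to 16897 units in WT-WT and 21038 to 23051 in WT-KO, but did not all rise. Of the 5 tested, 4 were called higher, Nanog by the 0.86 given above, and Zfp42 was not called. Fut4, too low to be tested, was at 3.10 to 3.39 in WT-WT and 2.66 to 3.07 in WT-KO.

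Genes of the formative state, which cells enter when they leave the naive state, fell in part. Of 16 tested, 9 (56.3%) fell and 2 rose, with a median of -0.34; 4 fell and 1 rose in clones E3 and C1 alone. Car4, a membrane carbonic anhydrase, was at 8.59 to 8.72 in WT-WT and 6.13 to 6.71 in WT-KO (-2.26 ± 0.120, adjusted p = 1.76e-09, limma). The transcription factors Otx2 and Pou3f1 fell by 0.90 ± 0.141 and 0.81 ± 0.155, and Zic2 rose by 0.64 ± 0.132. The de novo DNA methylation genes and the maintenance genes moved in opposite directions: Dnmt3l fell by 0.71, Dnmt3a by 0.54 and Dnmt3b by 0.38, while Dnmt1 rose by 0.36 and its partner Uhrf1 by 0.32. The Dnmt3b groups overlapped, and its difference without WT-WT replicate 2 was -0.25 (adjusted p = 0.059, limma). In clones E3 and C1 alone the calls of Dnmt3a and Dnmt3b were lost. Gadd45b, linked to demethylation and stress, fell by 0.88.

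**Figure D4:**
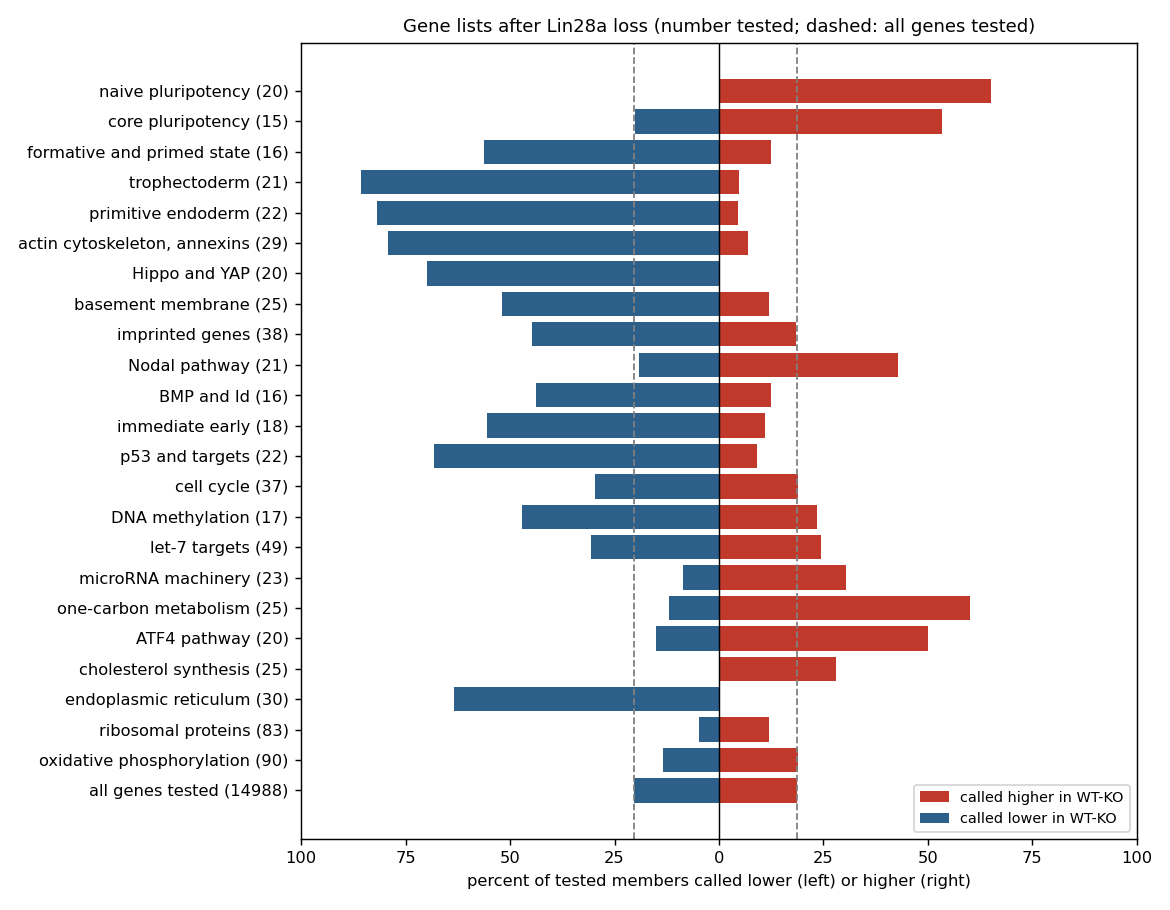
Percent of tested members of each gene list called lower (left) or higher (right) in WT-KO, with the number tested beside each name and dashed lines at the shares over all genes tested, 20.3% and 18.7%. Trophectoderm, primitive endoderm, cytoskeleton and Hippo lists extend left, and the naive list extends right. The lists were chosen with earlier results of these data known.

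In Nodal signalling, a TGF-beta branch that patterns the embryo, the ligand and its feedback inhibitors diverged. Nodal was at 9.40, 9.38, 9.35 and 9.40 in WT-WT and at 8.67, 8.76, 8.81, 8.50 and 8.65 in WT-KO (-0.70 ± 0.0730, adjusted p = 2.79e-06, limma). Lefty2, a secreted Nodal inhibitor and Nodal target, was at 6.53, 6.49, 6.11 and 6.41 in WT-WT and at 7.72, 8.02, 7.76, 7.91 and 8.11 in WT-KO (1.52 ± 0.113, adjusted p = 7.05e-08, limma). Lefty1 rose by 1.28 ± 0.119, the ligand gene Gdf3 by 1.01, the intracellular inhibitor Smad7 by 0.75 and the activin subunit Inhbb by 0.68. Neither Nodal nor Lefty2 had overlapping groups. Of 21 genes tested, 9 (42.9%) rose and 4 (19.05%) fell. The counts were 5 and 2 in clones E3 and C1 alone, and 7 fell without the day term.

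Targets of BMP and of growth factor signalling were mixed. Of 16 BMP and Id genes, 2 (12.5%) rose and 7 (43.75%) fell. Without WT-WT replicate 4, WT-KO replicate 1 or WT-KO replicate 5, or in clones E3 and C1 alone, 4 fell, and without WT-WT replicate 1 or 2, or in either clone pair alone, 1 rose. Id2, an inhibitor of differentiation factors, was at 8.50 to 8.71 in WT-WT and 6.79 to 6.97 in WT-KO (-1.74 ± 0.0791, adjusted p = 4.42e-10, limma). Id1 fell by 1.08 ± 0.190 and Msx2 by 0.92, while Id4 rose by 0.60. Of 18 immediate early genes, which respond within minutes to signals, 10 (55.6%) fell and 2 rose; 1 rose without any one of WT-WT replicates 1, 3 and 4 or WT-KO replicates 2, 4 and 5, and in either clone pair alone. Egr1 went up by 1.41 ± 0.133, from 7.34 to 7.64 in WT-WT to 8.59 to 9.24 in WT-KO. Klf6 (-1.41), Fosl2 (-1.32), Ier5 (-1.29), Phlda1 (-0.99) and Jun (-0.67) fell. Fos fell by 1.01 ± 0.217, and its value rests in part on WT-WT replicate 4, at 6.35 against 5.19 to 5.45 in the others; without that library the difference was -0.63 (adjusted p = 0.00285, limma).

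Targets of p53, the stress-responsive tumour suppressor, were lower. Of 22 tested, p53 itself included, 15 (68.2%) fell and 2 rose, with a median of -0.41. Mdm2, the ubiquitin ligase that restrains p53 and is its target, was at 11.10, 11.13, 11.31 and 11.16 in WT-WT and at 10.28, 10.26, 10.41, 10.21 and 10.27 in WT-KO (-0.89 ± 0.0649, adjusted p = 5.84e-08, limma). The apoptosis-linked membrane protein Perp fell by 1.20, Phlda3 by 0.79, Plk2 by 0.78, Btg2 by 0.69, Ccng1 by 0.59 and the cell cycle inhibitor Cdkn1a by 0.52. Sesn2 was 0.32 higher, and Bax was not called (0.04, adjusted p = 0.549, limma). Trp53 itself was 0.15 higher (adjusted p = 0.0104, limma), and in clones E3 and C1 alone the calls of Trp53 and Sesn2 were lost, leaving 0 list members that rose there. Among 37 cell cycle genes 7 (18.9%) rose, near the 18.7% of all genes tested, and 11 (29.7%) fell. Without WT-KO replicate 1, 4 rose, and in clones E3 and C1 alone 3 rose and 6 fell. The inhibitor genes Cdkn2a (-0.97 ± 0.0804) and Cdkn2b (-0.79 ± 0.0872) fell, and Cdk6 rose by 0.53 ± 0.0755. Mki67, a marker of cycling cells, fell by 0.79 ± 0.156, and the cyclin gene Ccnd2 by 1.03 ± 0.174. In the Trim71-null cells Mki67 was not called (-0.12, adjusted p = 0.584, limma). The cyclin gene Ccnd1 rose by 0.45 ± 0.100, with overlapping groups, and Mcm3 by 0.26 ± 0.0432. Ccna2 was not called (-0.05, adjusted p = 0.359, limma), and Ccnb1 differed by -0.09 (adjusted p = 0.0499, limma). Cdk1, the mitotic kinase, was 0.17 lower (adjusted p = 0.0125, limma), a call lost without WT-WT replicate 1 and in clones E3 and C1 alone.

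The let-7 microRNAs are the best known clients of LIN28A, and mature let-7 was not measured by these mRNA libraries. The sequences below show what the family shares: of 11 members with a 5′-arm sequence in RefSeq (GRCm38.p6), 10 carry the seed GAGGUAG at bases 2 to 8, given in capitals.
let-7a-5p: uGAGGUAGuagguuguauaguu
let-7g-5p: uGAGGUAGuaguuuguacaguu
let-7i-5p: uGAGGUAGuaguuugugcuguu
miR-98-5p: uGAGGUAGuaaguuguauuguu
A message pairs with this seed through the letters CTACCTCA. Stretches of 30 bases from 4 3′ UTRs (GENCODE vM21) show that site in capitals in genes that fell (Hmga2, Prtg) and in genes that rose (Igf2bp2, Trim71).
Hmga2: acattcaatttCTACCTCAgcatcagttgg
Prtg: ctgctgaatagCTACCTCAgtttgctgtgg
Igf2bp2: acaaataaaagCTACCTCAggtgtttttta
Trim71: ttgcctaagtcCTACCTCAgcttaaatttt
The sites begin at base 61, 274, 1316 and 169 of their 3′ UTRs. That of Trim71 is the first of 4.

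Known let-7 targets moved in both directions. Hmga2, an architectural chromatin protein, was at 7.39, 7.42, 7.52 and 7.23 in WT-WT and at 6.28, 6.24, 6.19, 6.25 and 6.19 in WT-KO (-1.16 ± 0.0789, adjusted p = 2.83e-08, limma). Prtg, a neural-tube surface receptor, fell by 1.02 ± 0.106, Ccnd2 by 1.03, Irs2 by 0.79 and Myc by 0.64; the Myc groups overlapped and its call was lost in clones E3 and C1 alone. Igf2bp2, an mRNA-binding protein, was at 9.61, 9.60, 9.62 and 9.61 in WT-WT and at 10.33, 10.20, 10.27, 10.46 and 10.16 in WT-KO (0.68 ± 0.0752, adjusted p = 5.56e-06, limma). Its relative Igf2bp3 rose by 0.48 and Peg12 by 0.49, and Igf2bp1 was not called (0.03, adjusted p = 0.705, limma). Over the 49 list members tested, 12 (24.5%) rose and 15 (30.6%) fell, with a median of 0.01; in clones E3 and C1 alone 6 rose and 6 fell. Of the 25 that hold CTACCTCA in the 3′ UTR, 4 rose and 8 fell (median -0.01), and of the 24 that do not, 8 rose and 7 fell (median 0.03).

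Over all genes with a 3′ UTR, groups with and without the site had nearby medians. The median log2 difference was -0.0118 for 463 genes with the 8-base site, -0.00919 for 1632 with a 7-base site alone and -0.0108 for 10480 with none. With the GC and length correction the medians were 0.041, 0.033 and 0.027 in the same order, and the difference between them was not tested. Among genes with the 8-base site 20.7% rose and 21.0% fell, against 19.2% and 21.3% of genes with none. The groups differ in median 3′ UTR length, 2552 and 944 bases.

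**Figure D5:**
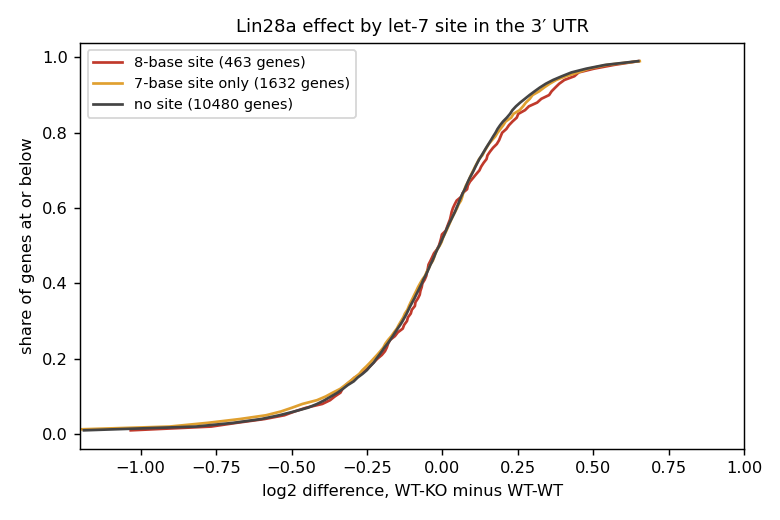
Share of genes (y axis) at or below each log2 difference, WT-KO minus WT-WT (x axis), for genes with an 8-base let-7 site in the 3′ UTR (463), a 7-base site alone (1632) and no site (10480). Each curve is drawn from the percentiles of its group, and the 3 lie close together, with medians of -0.0118, -0.00919 and -0.0108.

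Genes of the microRNA machinery changed little. Of 23 tested, 7 rose and 2 fell, with a median of 0.08; 3 rose without WT-WT replicate 1, 1 rose in clones E3 and C1 alone and 11 rose with the GC correction. A single gene fell without any one of WT-WT replicates 2, 3 and 4 or WT-KO replicates 3 and 5, and in clones E3 and C1 alone. Of the terminal uridylyl transferase genes that act with LIN28A, Zcchc6 fell by 0.34 ± 0.0781 (adjusted p = 0.00322, limma) and Zcchc11 was not called (-0.21, adjusted p = 0.155). Tnrc6c, a silencing cofactor, rose by 0.28, a call lost in clones E3 and C1 alone.

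Endoplasmic reticulum genes were lower by small amounts. Of 30 tested, 19 (63.3%) fell and 0 rose in limma (0 also at an unadjusted p under 0.05), with a median of -0.23, and 9 fell in clones E3 and C1 alone. Hspa5, the main chaperone of that compartment, was at 12.84, 12.93, 12.83 and 12.86 in WT-WT and at 12.29, 12.19, 12.20, 12.51 and 12.30 in WT-KO (-0.57 ± 0.0769, adjusted p = 3.54e-05, limma). The chaperone Hsp90b1 fell by 0.68, the translocon protein Sec62 by 0.60 and calreticulin, Calr, by 0.29. These falls are of messages, and binding by LIN28A was not measured.

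Folate and serine metabolism genes, which feed nucleotide and methyl group synthesis, were higher. Of 25 tested, 15 (60.0%) rose and 3 fell, with a median of 0.24; 1 fell without any one of WT-WT replicates 1, 2 and 4 or WT-KO replicates 2, 4 and 5, and 0 in clones E3 and C1 alone. Shmt2, which moves carbon units from serine to folate in mitochondria, was at 10.04, 10.06, 9.94 and 10.04 in WT-WT and at 10.54, 10.72, 10.53, 10.52 and 10.67 in WT-KO (0.58 ± 0.0588, adjusted p = 2.29e-06, limma). The next mitochondrial enzymes Mthfd1l and Mthfd2 rose by 0.56 and 0.47, the serine synthesis enzyme Psat1 by 0.40, and Gldc and Tdh, which break down glycine and threonine, by 0.26 each. Tyms, thymidylate synthase, was not called (0.02, adjusted p = 0.722, limma). Of 20 genes of the ATF4 stress response, 10 (50%) rose and 3 (15%) fell, with 6 rising in clones E3 and C1 alone. Slc7a11, a member, was tested only because it reached the level in Lin28a-null libraries. Atf4 rose by 0.44 ± 0.0657, Nupr1 by 0.78 and Trib3 by 0.64, while Ddit4 and Atf3 fell by 0.72 and 0.64. Of 25 cholesterol synthesis genes 7 (28%) rose and 0 fell in limma (0 also at an unadjusted p under 0.05). Without the day term 11 rose, and 3 rose in clones E3 and C1 alone.

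Of the 14 genes that rose at least 2-fold, 3 were in the Nodal list, and the immediate early, imprinted and Wnt lists held 1 each. Myo1f, an unconventional myosin, was at 6.36 to 6.59 in WT-WT and 7.70 to 8.12 in WT-KO (1.38 ± 0.106, adjusted p = 1.02e-07, limma). Dmtn, a membrane-skeleton protein of red cells, rose by 1.16, the Wnt-inactivating enzyme Notum by 1.13, the large cadherin Fat2 by 1.11, Fgf17 by 1.07, Nphs1, known from the kidney filter, by 1.05 and the receptor Notch4 by 1.03. Of the 188 genes that fell at least 2-fold, 38 were in the trophectoderm, primitive endoderm or cytoskeleton lists, 72 were in a list of any kind and 116 in none.

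The same contrast was also measured without Trim71, in the KO-KO and KO-WT libraries of the same clones. There, 36.9% of genes were called, and the difference was of the same sign for all 202 genes that changed at least 2-fold with Trim71 intact; since the clones are shared, this is no independent check. H19 differed by -5.02 there, Krt8 by -3.96, Cubn by -3.39, Acta2 by -2.56, Nanog by 0.97, Lefty2 by 1.11 and Hmga2 by -1.17. The difference between the Trim71 states was tested directly, and limma gave an adjusted p under 0.05 for 0 genes (0%). An unadjusted p under 0.05 was reached by 1749 of the 14988 genes, of which 21 are among the 202. The absence of called genes does not show that the differences were equal in both states. Without the day term 253 genes were called for that difference.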

How the data were processed

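mRNA was sequenced in 19 libraries of mouse embryonic stem cells (TruSeq RNA v2, HiSeq1500, paired-end, per the labels' protocols). The submitters' processing notes name CASAVA 1.8, STAR and DESeq2, without roles; build, annotation, counting and normalisation are not given in the sources used here. The authors deposited log2 normalised values for 21685 genes, with the base read from the values. Depth is unknown, and the library totals of 7297919 to 7677445 units are not depths.

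The deposited values carry no day effect (largest day term of any gene 1.7e-08) and no clone effect within a Lin28a state (1.2e-08). KO-WT replicate 5 matched the average of its genotype to 1.5e-08 and was left out, leaving 18 libraries. Each was taken as a separate culture sample; where that does not hold, p-values measure technical spread. limma 3.58.1 (R 4.3.3; lmFit, eBayes with trend) fitted all 4 genotypes with a term per day and a clone-pair term, 9 residual degrees of freedom, 2-sided, with Benjamini-Hochberg adjustment over all genes with at least 10 units in at least 4 libraries. The first design lacked the clone term (10 degrees of freedom); it was added after the removal was seen. A planned test of the difference between clone pairs is void for the same reason. Days, as labelled, are the block that pairs libraries across genotypes; replicate numbers are only names. The fits were tested on simulated data.

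Genes were named by rule: the 12 largest called differences each way among genes with at least 50 units and no overlap, up to 3 called members each way per list, and list members needed as reference. Members and lists were chosen with earlier results of these data known. GC content, length and 3′ UTRs came from GENCODE vM21. Alternatives covered the block, clones, scaling, filters, limma options and each left-out library.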

Additional observations from a re-analysis of the deposited data

Results flagged for a closer look

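A library lay far from the others of its genotype for 18 of the 344 pairs of gene and genotype looked at; the measure is the gap to the nearest library divided by the range of the group, which had to pass Dixon's critical value. Chance alone passes it in about 1 of 20 groups. In WT-KO replicate 2, Cdkn2b at 3.46 was the lowest, with the next at 3.63 (gap 0.751), Tcl1 at 8.28 was the lowest, with the next at 8.56 (gap 0.865) and Trib3 at 8.96 was the highest, with the next at 8.61 (gap 0.714). In WT-KO replicate 3, Tubb3 at 8.72 was the lowest, with the next at 9.04 (gap 0.747) and Wnt9a at 5.02 was the highest, with the next at 4.62 (gap 0.745). In WT-KO replicate 4, Rhox6 at 6.87 was the highest, with the next at 6.55 (gap 0.773), S100a6 at 6.95 was the highest, with the next at 6.38 (gap 0.891) and Zcchc6 at 8.75 was the highest, with the next at 8.61 (gap 0.838). In WT-WT replicate 1, Col4a2 at 9.38 was the lowest, with the next at 9.74 (gap 0.834), Irs2 at 7.03 was the lowest, with the next at 7.19 (gap 0.837) and Thbs1 at 7.27 was the lowest, with the next at 7.65 (gap 0.893). In WT-WT replicate 3, Apoa2 at 7.54 was the lowest, with the next at 7.72 (gap 0.898), Ascl2 at 5.92 was the lowest, with the next at 6.26 (gap 0.876), Fgf17 at 5.65 was the lowest, with the next at 6.02 (gap 0.868) and Nphs1 at 8.35 was the highest, with the next at 8.07 (gap 0.941). In WT-WT replicate 4, Acta2 at 6.87 was the highest, with the next at 6.35 (gap 0.918), Gadd45b at 7.37 was the lowest, with the next at 7.61 (gap 0.904) and Id1 at 6.95 was the lowest, with the next at 7.27 (gap 0.842). None of these libraries brought the 2 groups to overlap for its gene.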

How the results depend on the processing

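Of the genes with values or calls above, 172 were followed through the alternative fits. In the main fit 157 of them were called, and 145 of these were called in each of the 21 alternative fits that held them. No called difference of these genes changed sign. The other 12 lost a call in at least 1 fit: 10 in clones E3 and C1 alone, which hold 2 same-day pairs, and 3 in clones 1 and 1-4 alone, with Yap1, Sox2, Dnmt3b and Cdk1 also losing theirs when 1 library was left out. The number of genes called fell from 5842 to 2323 in clones E3 and C1 alone and to 4373 in clones 1 and 1-4 alone. The fit of clones 1 and 1-4 holds fewer libraries than that of E3 and C1, and the reason for the gap was not tested. With each library left out in turn the number called lay between 4737 and 5784, and the count at 2-fold between 183 and 222. With the filter at 50 units 138 genes reached 2-fold, and with no filter 225. Of 86 list counts, 54 moved by over 1.5 times in clones E3 and C1 alone and at most 12 in any other fit. The difference between the Trim71 states gave 0 genes, 3 without the clone term, 1 in clones E3 and C1 alone, 2 with scaling to the 75th percentile, and 0 to 4 with each library left out. Without the day block it gave 253, and the Lin28a contrast gave 7658; that fit counts degrees of freedom which the removal of day had used, and the check of pairing by correlation is void for the same reason. The fit as first designed, without the clone term, called 6351 genes; the clone term was chosen after seeing the data. The planned test between clone pairs could not give a value. The clone adjustment before deposit drew the clone pairs together, so a fit of a single pair is no independent check of sign or size. Scaling to the 75th percentile shifted every difference by 0.0254 and gave 3071 higher and 2763 lower. Depth is unknown, so no counting error can be given for low genes.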

Other observations

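Wnt pathway genes, which the account above leaves out, moved in both directions. Of 35 tested, 14 (40%) rose and 10 (28.6%) fell. In clones E3 and C1 alone 7 rose and 5 fell, and 4 fell with the filter at 50 units. Rnf43, a member, was tested only because it reached the level in Lin28a-null libraries. Notum rose by 1.13 ± 0.127, from 5.47 to 5.75 in WT-WT to 6.48 to 7.01 in WT-KO, and Sfrp1, a secreted Wnt antagonist, rose by 0.97 ± 0.0706. Wls, which carries Wnt proteins to the cell surface, was at 5.91 to 6.07 in WT-WT and 4.22 to 4.67 in WT-KO (-1.53 ± 0.120, adjusted p = 1.35e-07, limma). The ligands Wnt7b and Wnt9a fell by 0.94 and 0.77.

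Of 23 germline genes 4 (17.4%) rose, near the share of all genes tested, and 11 (47.8%) fell. The count that fell was 7 without WT-WT replicate 3 and 6 in clones E3 and C1 alone. Taf7l, a germ cell transcription cofactor, fell by 1.26 ± 0.148, while Tdrd5 (0.73) and Prdm1 (0.69) rose. Of 11 neural genes 5 (45.5%) rose and 3 (27.3%) fell, with 2 rising in clones E3 and C1 alone. Tubb3, a neuronal tubulin, was at 7.77 to 8.32 in WT-WT and 8.72 to 9.15 in WT-KO (0.90 ± 0.115, adjusted p = 2.2e-05, limma), Stmn2 rose by 0.65 and Nes fell by 0.48. Ptprc, a marker of blood cells, was not called (-1.28, adjusted p = 0.0978, limma), but was without WT-WT replicate 1 (-2.15, adjusted p = 0.01). It stood at 6.39 in WT-WT replicate 4 and at 2.84 to 4.29 in the other 8 libraries. That library also held the highest WT-WT values of Fos (6.35), Acta2 (6.87) and Col1a2 (5.11), and a relation between them was not tested. Of 19 genes of the 2-cell-like state, 13 were in the table and 0 reached the level for testing.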
